A study of Homo sapiens with 12 samples.

Results

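Collagens, laminins and the glycoproteins that join them make up the extracellular matrix. Their transcripts were followed in HEK293 Flp-In cells given an siRNA against TAF5, alone or with a TAF5 transgene, or a non-targeting siRNA. The gene set was chosen by name and biotype: every protein-coding row whose symbol is a collagen chain or a laminin chain, together with FN1, LOX, LOXL1, LOXL2, LOXL3, SPARC, FBN1, FBN2, NID1, NID2, HSPG2, AGRN, THBS1, TGFB1, TGFB2 and TGFBI. This gave 72 genes of the 32010 in the table, namely 44 collagen genes, 12 laminin genes and 16 others. Of the 72 genes, 63 had enough reads to be tested. HEK293 Flp-In is a human embryonic kidney line with a genomic site that accepts a transgene, and the TAF5 protein is part of TFIID, a general transcription factor that recognises core promoters. Polyadenylated RNA was sequenced from 4 groups of 3 libraries. In the siTAF5+TAF5-DE8 group, called TAF5-DE8 here, a single siRNA against TAF5 was followed by siRNA-resistant TAF5 lacking exon 8, and in the siTAF5+TAF5-FL group, called TAF5-FL, it was followed by siRNA-resistant full-length TAF5. The siTAF5 group had that siRNA and no transgene named in its label, and the siNT group carries the label of a non-targeting siRNA. All 4 groups carry a treatment label of siRNA and doxycycline, the drug that induces the transgenes. Doxycycline was given 24 h after transfection, for 48 h, at different doses for the TAF5-FL and TAF5-DE8 cells. The labels do not say in which cells siTAF5 and siNT were grown. A difference between libraries with and without a transgene therefore cannot be told apart from one between cell lines or drug doses. The labels do not describe the replicates as independent cultures, so p-values measure the spread between these libraries, which may be technical.

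Basement membranes are thin sheets built on a network of collagen IV and a network of laminins. Nidogens, perlecan and agrin link these networks to each other and to the cell surface. Each collagen IV protomer is a triple helix of chains, and the collagen IV genes lie in pairs that are transcribed in opposite directions from neighbouring starts. Fibrillar collagens form the banded fibres of connective tissue and cartilage, FACIT collagens sit on the surface of such fibres, and lysyl oxidases crosslink them. TGF-beta ligands are known as inducers of matrix genes in many cell types. HEK293 cells are not a typical matrix-producing cell, and they are known to carry a mixture of epithelial and neuronal transcripts.

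Library totals ran between 41.8 M and 62.5 M estimated counts. TAF5 itself was measured first, and its level was 88.0 ± 0.757 CPM in TAF5-DE8, 105 ± 2.44 in TAF5-FL, 6.72 ± 0.612 in siTAF5 and 40.0 ± 0.698 in siNT (mean ± SD, n = 3). CPM is the count normalised to library size, with sizes scaled by the trimmed mean of M values, and it is the unit of every level below unless a length is named. Both transgene groups therefore held more TAF5 RNA than siNT, and the siTAF5 libraries held less. Of 7 fibroblast and mesenchymal markers, DCN had at most 2 counts in any library, THY1 at most 5, POSTN at most 7, and LUM and PDGFRB at most 13. PDGFRA had 80 to 149 counts and was called lower in TAF5-FL than in siTAF5 (log2 -0.44, adjusted p = 0.00865). ACTA2, a smooth muscle actin also found in other cells, averaged 32.1 ± 2.55 CPM in TAF5-DE8, 23.3 ± 0.755 in TAF5-FL, 37.9 ± 2.12 in siTAF5 and 19.8 ± 2.19 in siNT, and was 1.92-fold higher in siTAF5 than in siNT (log2 0.94, adjusted p = 3.69e-10). The summed level of these markers, most of it ACTA2, was 32.5 to 37.1 CPM in TAF5-DE8, 24.9 to 26.3 in TAF5-FL, 38.8 to 43.6 in siTAF5 and 20.8 to 24.9 in siNT. The 4 endothelial and 5 blood markers summed to at most 0.581 CPM in any library. The 7 epithelial and kidney markers, led by KRT8 and KRT18, summed to 435 to 449 CPM in TAF5-DE8, 499 to 522 in TAF5-FL, 404 to 415 in siTAF5 and 471 to 479 in siNT. They did not move together. CDH1 averaged 3.77 ± 0.21 CPM in TAF5-DE8, 6.4 ± 0.142 in TAF5-FL, 6.53 ± 0.208 in siTAF5 and 11.9 ± 0.427 in siNT. EPCAM averaged 67.7 ± 0.672, 86.7 ± 2.83, 64.8 ± 1.8 and 84.4 ± 1.63 CPM in the same order. In TAF5-DE8 against siNT, CDH1 was called lower (log2 -1.66) and KRT18 higher (log2 0.08). Of the kidney factors in that list, PAX8 had at most 4 counts, whereas PAX2 had 210 to 466 and LHX1 163 to 386. PAX2 was lower in siTAF5 than in siNT (log2 -0.30, adjusted p = 0.0063), and LHX1 was lower in TAF5-FL than in siTAF5 (log2 -0.64, adjusted p = 6.51e-06). The 3 neuronal cytoskeleton markers summed to 305 to 329.8 CPM in TAF5-DE8, 323 to 344 in TAF5-FL, 350.5 to 374 in siTAF5 and 398 to 412 in siNT. Most of that sum was NEFL, at 261 ± 12.3 CPM in TAF5-DE8 and 364 ± 6.18 in siNT. INA ran the other way, at 55.8 ± 1.2 CPM in TAF5-DE8, 60.8 ± 2.2 in TAF5-FL, 43.1 ± 0.193 in siTAF5 and 37.4 ± 1.46 in siNT. NEFM averaged 1.15 ± 0.246 to 1.69 ± 0.0383 CPM by group. These sums moved with the groups, and their part in the matrix results was not tested. In bulk RNA, fewer cells of a type and less RNA per cell cannot be told apart.

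Because TFIID acts at the core promoter, promoter sequences are shown for genes on which the results turn. They are the bases just upstream of RefSeq starts on GRCh38.p14, 5′ to 3′ on the strand named. Capitals mark the TATA-box letters TATAAA, the CCAAT box and the GC-box letters GGGCGG, each with its reverse complement. Both strands were searched, and overlapping matches were allowed. The stretch of 126 bases between the opposed starts of COL4A1 and COL4A2 (chr13:110307158-110307283, plus strand) serves a pair of genes that are strongly expressed here:
COL4A1 and COL4A2: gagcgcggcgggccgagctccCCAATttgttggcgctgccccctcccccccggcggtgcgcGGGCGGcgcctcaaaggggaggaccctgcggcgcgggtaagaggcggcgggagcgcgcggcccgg
The 250 bases before COL4A5 (chrX:108439588-108439837, plus strand), before FN1 (chr2:215436069-215436318, minus strand) and before TGFB1 (chr19:41353923-41354172, minus strand) are shown because COL4A5 and FN1 rose in siTAF5 against siNT, whereas TGFB1 fell:
COL4A5: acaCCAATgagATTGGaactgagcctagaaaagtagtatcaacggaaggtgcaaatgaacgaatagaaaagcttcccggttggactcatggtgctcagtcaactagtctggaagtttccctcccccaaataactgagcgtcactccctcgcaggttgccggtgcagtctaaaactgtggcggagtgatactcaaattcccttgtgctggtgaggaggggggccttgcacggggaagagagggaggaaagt
FN1: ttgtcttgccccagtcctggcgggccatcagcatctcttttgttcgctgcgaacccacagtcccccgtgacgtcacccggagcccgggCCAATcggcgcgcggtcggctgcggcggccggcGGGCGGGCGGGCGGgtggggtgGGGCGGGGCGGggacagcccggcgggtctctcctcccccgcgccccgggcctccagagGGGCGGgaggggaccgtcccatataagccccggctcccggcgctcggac
TGFB1: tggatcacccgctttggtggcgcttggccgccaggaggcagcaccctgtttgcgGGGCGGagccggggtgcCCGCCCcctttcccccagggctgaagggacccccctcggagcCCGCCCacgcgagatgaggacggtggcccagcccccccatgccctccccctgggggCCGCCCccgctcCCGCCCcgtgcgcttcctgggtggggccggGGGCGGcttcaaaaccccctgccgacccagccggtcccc
The 60 bases before COL6A2 (chr21:46098052-46098111, plus strand) and before TGFB2 (chr1:218345276-218345335, plus strand) are shown as examples with a TATAAA run:
COL6A2: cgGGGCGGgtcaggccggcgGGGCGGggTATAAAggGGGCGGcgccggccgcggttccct
TGFB2: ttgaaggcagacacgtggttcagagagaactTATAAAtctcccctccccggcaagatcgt
In the promoter table, 55 of the 72 genes had at least 1 window of 300 bases, and together they had 72 windows. TATAAA occurred in 9 of these windows (12.5%), against 11.5% of the 35116 windows of all genes. CCAAT occurred in 22 (30.6%), against 34.6% of all windows. GGGCGG occurred in 42 (58.3%), against 45.0% of all windows. A match is a description of these letters and says nothing of binding.

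Per kilobase of exon, basement membrane and collagen VI transcripts stood highest. Averaged over the 12 libraries, the level was 56.6 CPM per kilobase for LAMC1, the gamma chain of most laminins, 49.2 for NID1, 39.3 for COL6A1, 36.5 for LAMB1 and 35.4 for AGRN. LAMC1 had 456, 468 and 438 CPM in TAF5-DE8, 392, 409 and 401 in TAF5-FL, 478, 474 and 477 in siTAF5 and 460.1, 467 and 439 in siNT. TAF5-FL was lowest and siTAF5 highest by a narrow margin, while TAF5-DE8 overlapped siNT. Some partner chains were nearly absent. COL1A2, the second chain of collagen I, had at most 1 count in any library, whereas COL1A1 averaged 7.37 ± 0.268 (TAF5-DE8) to 13.7 ± 0.174 CPM (siNT). COL6A3, the third chain of classical collagen VI, had 2 to 14 counts per library, whereas COL6A1 had 5168 to 12640. COL1A2, COL11A1, COL22A1, COL9A1, COL6A5, COL10A1, COL8A2, COL28A1 and LAMB4 were the 9 genes with too few reads to test, with at most 11 counts in any library.

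**Figure D1:**
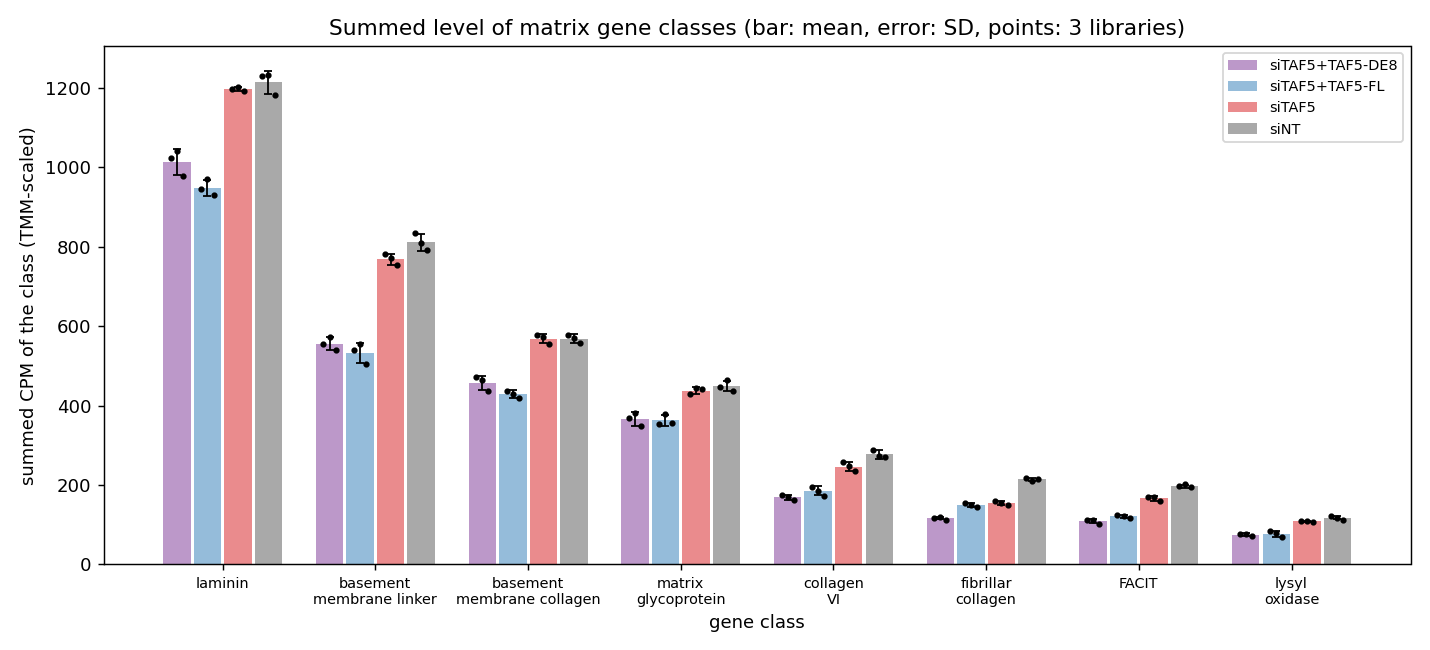
Summed level (CPM) of the genes in 8 matrix classes, with groups drawn in the order TAF5-DE8, TAF5-FL, siTAF5 and siNT, bars for the mean, error bars for the SD and points for the 3 libraries. In every class drawn except fibrillar collagens, all libraries with a transgene lie below all those without, and sums are not corrected for transcript length.

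Summed over the 72 genes, the matrix transcripts came to 3074.8, 3112.6 and 2920.4 CPM in TAF5-DE8, 3022.8, 3058.7 and 2887.7 in TAF5-FL, 3927.7, 3918.4 and 3829.7 in siTAF5 and 4203.9, 4146.5 and 4033.1 in siNT. All libraries with a transgene lay below all libraries without one, while TAF5-DE8 and TAF5-FL overlapped. The plot of class sums shows where single classes had the same order.

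In siTAF5 against siNT, which compares the TAF5 siRNA with the non-targeting siRNA, 5 of the 63 genes tested were called higher and 30 lower. Over all 19424 genes tested, 49.7% were called, 24.7% higher and 25.0% lower (edgeR quasi-likelihood test, adjusted p under 0.05). The median log2 change was -0.145 over the matrix genes and 0.000216 over all genes. Fibrillar and FACIT collagens made up 13 of the 30 genes called lower, with 6 of 9 fibrillar and 7 of 8 FACIT genes. The siTAF5 and siNT libraries were fully separate for 40 of the 63 genes, against 57.3% of all genes. The 5 called higher were COL4A5, LAMB2, FN1, LOXL1 and AGRN.

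TAF5-FL against siTAF5 sets libraries with the full-length transgene against knockdown libraries with none named. In it 7 matrix genes were called higher and 40 lower, with a median log2 change of -0.376. Libraries did not overlap for 51 of the 63, against 56.3% of all genes. Over all genes 48.8% were called, 24.4% higher and 24.4% lower. All 6 collagen IV genes, all 4 linkers, 8 of 11 laminins and 3 of 4 lysyl oxidases were called lower. When libraries were scaled by their totals, 39.3% of all genes called were higher, against 50.1% as scaled here, and the matrix genes were called 6 higher and 43 lower.

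In TAF5-DE8 against siTAF5, 4 matrix genes were called higher and 47 lower, with a median log2 change of -0.446. Libraries did not overlap for 56 of the 63, against 49.9% of all genes. Over all genes 40.6% were called, 20.0% higher and 20.6% lower. Without siTAF5 replicate 1, or without TAF5-DE8 replicate 3, 2 genes rather than 4 were called higher. Both transgene comparisons share the siTAF5 libraries.

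TAF5-DE8 and TAF5-FL differ in exon 8, and also in doxycycline dose and in the level of TAF5 RNA (88.0 and 105 CPM), so that these cannot be told apart. In TAF5-DE8 against TAF5-FL, 12 matrix genes were called higher and 20 lower, and none differed 2-fold or more. Libraries did not overlap for 31 of the 63, against 45.7% of all genes. Over all genes 37.0% were called, 17.3% higher and 19.7% lower. The median log2 difference was -0.073 over the matrix genes and -0.00895 over all genes. All 9 fibrillar and FACIT genes called were lower in TAF5-DE8, while 2 collagen IV genes, 2 linkers and 5 laminins were higher. Without TAF5-FL replicate 2, 13 genes rather than 20 were called lower. With libraries scaled by their totals, 13 matrix genes were called higher and 15 lower, and 56.1% of all genes called were higher, against 46.8% as scaled here.

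Against siNT, TAF5-DE8 had 1 matrix gene called higher and 47 lower, where 62.2% of all genes were called, 30.8% higher and 31.4% lower. TAF5-FL against siNT had 3 called higher and 48 lower, where 54.6% of all genes were called, 27.8% higher and 26.8% lower. The medians were -0.607 for TAF5-DE8 and -0.523 for TAF5-FL on the log2 scale. Libraries did not overlap for 50 of the 63 genes in TAF5-DE8 against siNT (65.7% of all genes) and for 52 in TAF5-FL against siNT (59.7% of all genes). The TAF5-DE8 count of genes higher was 2 in place of 1 without siTAF5 replicate 1, without TAF5-FL replicate 1 or without TAF5-DE8 replicate 1.

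**Figure D2:**
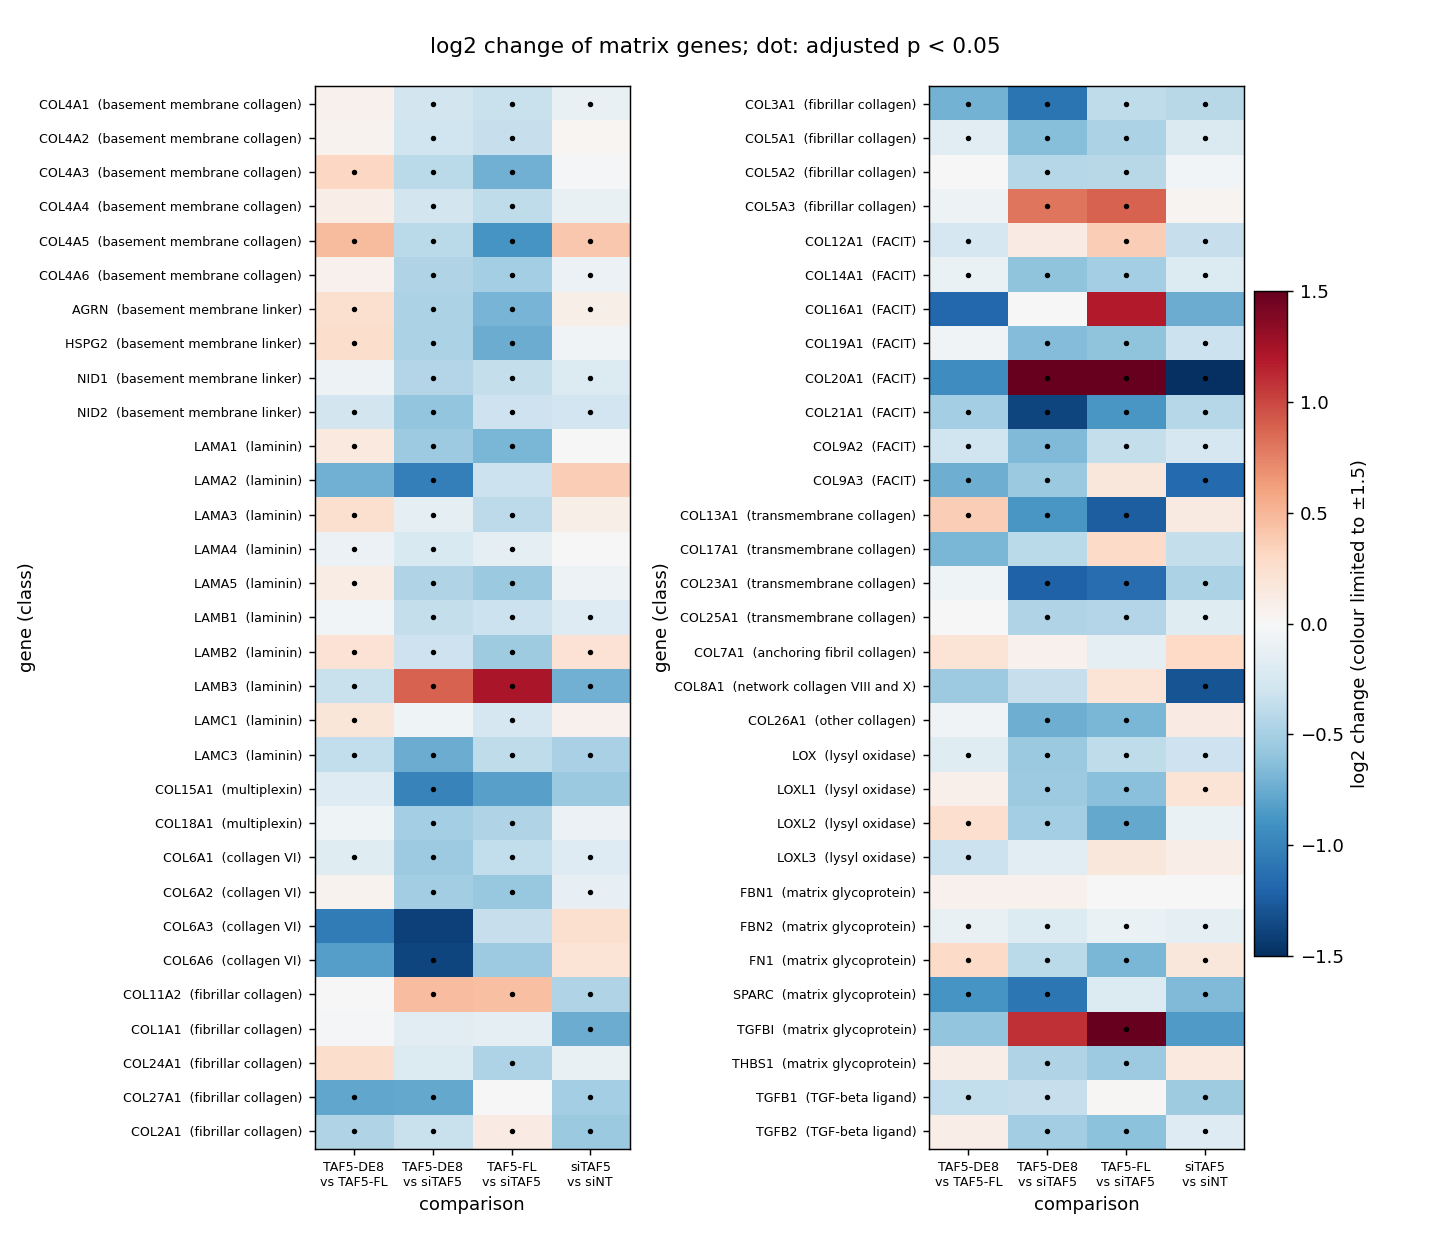
log2 change of tested matrix genes (rows, with class) in 4 comparisons (columns), red for higher and blue for lower in the group named first, colour limited to 1.5, with a dot where the adjusted p was under 0.05. The columns for TAF5-DE8 and TAF5-FL against siTAF5 are blue in most rows, with LAMB3, COL20A1 and COL5A3 among the red exceptions.

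Collagen IV chains, which form the network of basement membranes, were lower in both transgene groups than in siTAF5. They differed among themselves in siTAF5 against siNT. COL4A5, a chain mutated in Alport syndrome (chromosome X, 108439838 to 108697545, plus strand, hg38), had 47.0, 44.1 and 43.6 CPM in TAF5-DE8, 32.0, 32.9 and 32.8 in TAF5-FL, 57.1, 62.5 and 59.4 in siTAF5 and 45.3, 44.7 and 46.2 in siNT. The siTAF5 libraries were highest and the TAF5-FL libraries lowest, while TAF5-DE8 overlapped siNT. COL4A5 was 1.32-fold higher in siTAF5 than in siNT (log2 0.40, SE 0.036, adjusted p = 2.23e-08). It was 1.84-fold lower in TAF5-FL than in siTAF5 (log2 -0.88, SE 0.038, adjusted p = 8.52e-13). Between the transgenes it was 1.38-fold higher in TAF5-DE8 than in TAF5-FL (log2 0.47, SE 0.039, adjusted p = 1.56e-08). TAF5-DE8 did not differ from siNT by this test (log2 -0.02, SE 0.037, adjusted p = 0.745).

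COL4A6 is the neighbour of COL4A5, transcribed the other way, with 379 bases between the RefSeq starts. COL4A6 had 32.8, 32.9 and 30.7 CPM in TAF5-DE8, 30.5, 31.1 and 31.3 in TAF5-FL, 43.8, 44.5 and 43.8 in siTAF5 and 46.5, 47.6 and 46.3 in siNT. Its siTAF5 libraries lay just below siNT, the opposite side from COL4A5, and its transgene libraries lay below both. The log2 change in siTAF5 against siNT was -0.09 (SE 0.032, adjusted p = 0.0287), a call that was lost when libraries were scaled by their totals, with DESeq2 and without siNT replicate 2. In TAF5-DE8 against TAF5-FL the difference was 0.06 (SE 0.035, adjusted p = 0.218), where COL4A5 had 0.47.

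COL4A1 and COL4A2 encode the chains found in nearly all basement membranes. COL4A1 (chromosome 13, 110148963 to 110307157, minus strand) had 159, 154 and 148 CPM in TAF5-DE8, 150.2, 147 and 144 in TAF5-FL, 189, 183 and 182 in siTAF5 and 202, 201 and 195 in siNT. Its neighbour COL4A2 had 205, 207 and 189 CPM in TAF5-DE8, 201, 193 and 187 in TAF5-FL, 256, 247 and 239 in siTAF5 and 249, 240.2 and 236 in siNT. For both genes the transgene libraries were low and overlapped each other, but siTAF5 was clear of siNT only for COL4A1. In siTAF5 against siNT, COL4A1 changed by -0.11 (SE 0.028, adjusted p = 0.00253) and COL4A2 by 0.03 (SE 0.034, adjusted p = 0.469). Their annotated spans overlap on opposite strands, and whether strand was used in counting is unknown here. The third pair, COL4A3 and COL4A4, was not called in siTAF5 against siNT. COL4A4 averaged 21.9 ± 1.14 CPM in TAF5-DE8, 20.5 ± 0.895 in TAF5-FL, 26.6 ± 0.945 in siTAF5 and 28.7 ± 1.41 in siNT. The level of COL4A3 was lower. COL4A3 had 4.91, 4.85 and 4.51 CPM in TAF5-DE8, 3.47, 4.46 and 3.74 in TAF5-FL, 6.39, 6.56 and 6.07 in siTAF5 and 6.46, 6.46 and 6.31 in siNT. The transgene groups were lower, and siTAF5 overlapped siNT. COL4A3 was higher in TAF5-DE8 than in TAF5-FL (log2 0.31, SE 0.09, adjusted p = 0.0107), a call lost without TAF5-FL replicate 1.

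**Figure D3:**
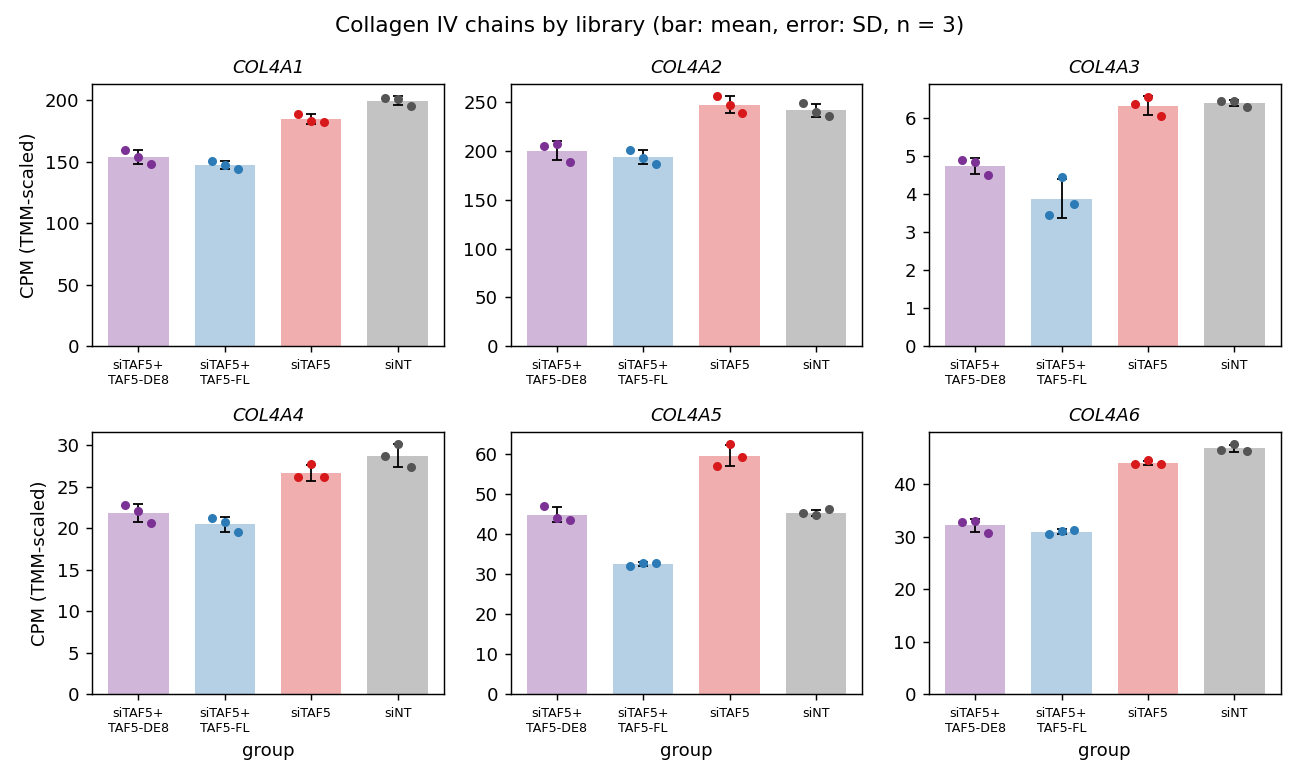
Level (CPM) of the 6 collagen IV genes in each library, by group in the order TAF5-DE8, TAF5-FL, siTAF5 and siNT, with bars for the mean and error bars for the SD of 3 libraries. COL4A5 alone among the 6 was called higher in siTAF5 than in siNT, at 59.7 ± 2.72 against 45.4 ± 0.775 CPM.

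The linkers of basement membranes were lower in both transgene groups than in siTAF5, and they split in siTAF5 against siNT. NID1, the nidogen that bridges laminin and collagen IV, had 234, 241 and 221 CPM in TAF5-DE8, 248, 252 and 236 in TAF5-FL, 320.4, 316 and 308 in siTAF5 and 368, 361 and 359.5 in siNT. The groups with a transgene overlapped, and siTAF5 lay between them and siNT. NID1 was 1.48-fold lower in TAF5-FL than in siNT (log2 -0.57, SE 0.03, adjusted p = 1.45e-11).

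NID2, the second nidogen (chromosome 14, 52004809 to 52069059, minus strand), had 38.5, 37.5 and 34.6 CPM in TAF5-DE8, 46.0, 46.4 and 42.1 in TAF5-FL, 56.5, 55.8 and 55.2 in siTAF5 and 69.3, 67.9 and 66.9 in siNT. No 2 groups overlapped. NID2 was 1.22-fold lower in siTAF5 than in siNT (log2 -0.29, SE 0.038, adjusted p = 2.72e-06) and 1.21-fold lower in TAF5-DE8 than in TAF5-FL (log2 -0.28, SE 0.041, adjusted p = 1.99e-05). It was 1.51-fold lower in TAF5-DE8 than in siTAF5 (log2 -0.59, SE 0.04, adjusted p = 1.88e-09). Its span overlaps RTRAF on the opposite strand, which had a mean of 5789.5 counts against 2786.1 for NID2.

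AGRN encodes agrin, a heparan sulfate proteoglycan that binds laminin. It had 229.7, 234 and 230.3 CPM in TAF5-DE8, 200.4, 205 and 183 in TAF5-FL, 327, 321 and 313 in siTAF5 and 316, 299 and 287 in siNT. TAF5-FL was lowest and TAF5-DE8 next, while siTAF5 and siNT overlapped. AGRN was 1.63-fold lower in TAF5-FL than in siTAF5 (log2 -0.70, SE 0.036, adjusted p = 6.97e-12) and higher in TAF5-DE8 than in TAF5-FL (log2 0.24, SE 0.037, adjusted p = 3.59e-05). The call in siTAF5 against siNT (log2 0.09, SE 0.036, adjusted p = 0.0393) held under 8 of 19 alternative settings, with adjusted p up to 0.237.

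HSPG2, which encodes perlecan, had TAF5-FL lowest and TAF5-DE8 next, as AGRN did, but its siTAF5 libraries lay just below siNT. It had 54.0, 59.4 and 53.8 CPM in TAF5-DE8, 45.5, 50.3 and 43.9 in TAF5-FL, 77.6, 78.2 and 77.8 in siTAF5 and 81.4, 81.8 and 78.6 in siNT. The transgene groups lay well below the others, and TAF5-DE8 lay above TAF5-FL without overlap. It was 1.73-fold lower in TAF5-FL than in siNT (log2 -0.79, SE 0.042, adjusted p = 1.42e-11) and 1.20-fold higher in TAF5-DE8 than in TAF5-FL (log2 0.26, SE 0.044, adjusted p = 8.5e-05). In siTAF5 against siNT it was not called (log2 -0.05, SE 0.04, adjusted p = 0.33).

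Laminin chains did not move as a block. In siTAF5 against siNT, LAMB2 was called higher, LAMB1, LAMB3 and LAMC3 were called lower, and 7 of 11 were not called. Over all genes 49.7% were called there. LAMB2, a beta chain prominent in kidney and muscle basement membranes, had 62.4, 61.2 and 59.4 CPM in TAF5-DE8, 55.5, 51.3 and 50.5 in TAF5-FL, 76.4, 75.8 and 75.4 in siTAF5 and 67.9, 65.2 and 62.9 in siNT. The siTAF5 libraries were highest and the TAF5-FL libraries lowest, as for COL4A5. LAMB2 was 1.16-fold higher in siTAF5 than in siNT (log2 0.22, SE 0.035, adjusted p = 3.24e-05) and 1.16-fold higher in TAF5-DE8 than in TAF5-FL (log2 0.22, SE 0.037, adjusted p = 0.000101).

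LAMB1, the beta chain with the higher level per kilobase, had 196, 192 and 181 CPM in TAF5-DE8, 201, 198 and 187 in TAF5-FL, 242, 248 and 241 in siTAF5 and 278, 279 and 278 in siNT. The transgene groups overlapped each other and lay below siTAF5, which lay below siNT. LAMB1 was 1.14-fold lower in siTAF5 than in siNT (log2 -0.19, SE 0.03, adjusted p = 1.96e-05), the opposite direction to LAMB2. LAMC1, whose values are given above, was 1.13-fold higher in TAF5-DE8 than in TAF5-FL (log2 0.18, SE 0.027, adjusted p = 2.49e-05). LAMC1 did not differ between TAF5-DE8 and siNT by the test (log2 0.00, SE 0.027, adjusted p = 0.929).

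LAMB3, a chain of the epithelial laminin that anchors skin (chromosome 1, 209614870 to 209652425, minus strand), was called higher with either transgene than in siTAF5. It had 2.95, 3.56 and 3.56 CPM in TAF5-DE8, 4.07, 3.96 and 4.57 in TAF5-FL, 1.62, 1.79 and 1.97 in siTAF5 and 3.35, 3.12 and 2.48 in siNT. The siTAF5 libraries were lowest, and TAF5-FL was highest. LAMB3 was 1.65-fold lower in siTAF5 than in siNT (log2 -0.72, SE 0.13, adjusted p = 0.000111). It was 2.33-fold higher in TAF5-FL than in siTAF5 (log2 1.22, SE 0.13, adjusted p = 1.4e-07) and 1.86-fold higher in TAF5-DE8 than in siTAF5 (log2 0.89, SE 0.13, adjusted p = 1.78e-05). The difference between the transgenes (log2 -0.33, SE 0.12, adjusted p = 0.0362) was called under 13 of 19 alternative settings. LAMA3, the alpha chain of the same laminin, had a different order of groups. LAMA3 had 35, 39.1 and 34.8 CPM in TAF5-DE8, 29.4, 32.0 and 31.2 in TAF5-FL, 39.0, 40.7 and 41.2 in siTAF5 and 37.5, 38.4 and 37.8 in siNT, so that TAF5-FL was lowest.

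In LAMC3, LAMA1, LAMA4 and LAMA5 all libraries with a transgene lay below all libraries without one. LAMA4 averaged 85.4 ± 2.01 CPM in TAF5-DE8, 90.8 ± 1.93 in TAF5-FL, 100.2 ± 1.25 in siTAF5 and 101 ± 2.52 in siNT. LAMC3, a gamma chain, had 6.73, 7.04 and 6.01 CPM in TAF5-DE8, 9.24, 8.42 and 7.89 in TAF5-FL, 11.5, 11 and 10.9 in siTAF5 and 16.6, 14.6 and 15.6 in siNT. The 4 groups were separate, in that order from low to high. LAMC3 was 2.35-fold lower in TAF5-DE8 than in siNT (log2 -1.23, SE 0.069, adjusted p = 6.87e-12). LAMA1 and LAMA5, alpha chains of embryonic and widespread laminins, were not called in siTAF5 against siNT (log2 0.01, SE 0.041 for LAMA1 and -0.08, SE 0.036 for LAMA5, adjusted p = 0.91 and 0.0706) and were lower in both transgene groups. LAMA1 averaged 46.0 ± 1.67 CPM in TAF5-DE8, 41.8 ± 3.26 in TAF5-FL, 67.0 ± 1.93 in siTAF5 and 66.7 ± 2.03 in siNT. LAMA2, the alpha chain of muscle laminin, was near the limit of detection, at 0.181 ± 0.0701 to 0.375 ± 0.0364 CPM by group.

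Fibrillar collagens were called lower in siTAF5 than in siNT for 6 of 9 genes tested, and none was called higher. Over all genes 25.0% were called lower and 24.7% higher. COL2A1, the collagen of cartilage fibrils (chromosome 12, 47972967 to 48004554, minus strand), had the highest level per kilobase of its class, 19.6 CPM. Its levels were 72.6, 73.6 and 72.1 CPM in TAF5-DE8, 103, 99.1 and 95.2 in TAF5-FL, 94.7, 91.7 and 88.4 in siTAF5 and 137, 133 and 135 in siNT. The siNT libraries were highest and TAF5-DE8 lowest, while TAF5-FL lay just above siTAF5. COL2A1 was 1.47-fold lower in siTAF5 than in siNT (log2 -0.56, SE 0.03, adjusted p = 1.51e-11) and 1.36-fold lower in TAF5-DE8 than in TAF5-FL (log2 -0.45, SE 0.032, adjusted p = 1.81e-09). It was 1.85-fold lower in TAF5-DE8 than in siNT (log2 -0.89, SE 0.031, adjusted p = 1.38e-14). The gain in TAF5-FL over siTAF5 was small (log2 0.12, SE 0.031, adjusted p = 0.0043), and it was not called when libraries were scaled by their totals (log2 0.07, adjusted p = 0.0692).

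COL1A1, the main chain of collagen I (chromosome 17, 50184101 to 50201632, minus strand), had 7.07, 7.59 and 7.45 CPM in TAF5-DE8, 7.95, 7.90 and 6.63 in TAF5-FL, 8.03, 7.86 and 8.77 in siTAF5 and 13.7, 13.9 and 13.6 in siNT. The siNT libraries stood alone on the high side. COL1A1 was 1.67-fold lower in siTAF5 than in siNT (log2 -0.74, SE 0.065, adjusted p = 1.21e-08). Neither TAF5-DE8 (log2 -0.16, SE 0.071, adjusted p = 0.0784) nor TAF5-FL (log2 -0.13, SE 0.071, adjusted p = 0.145) differed from siTAF5 by the test.

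COL27A1, a fibrillar collagen of cartilage, had 4.89, 5.34 and 3.70 CPM in TAF5-DE8, 8.31, 8.21 and 7.68 in TAF5-FL, 8.43, 7.85 and 7.84 in siTAF5 and 11.3, 11.4 and 11.6 in siNT. TAF5-FL and siTAF5 overlapped, siNT was higher and TAF5-DE8 lower. COL27A1 was 1.72-fold lower in TAF5-DE8 than in TAF5-FL (log2 -0.78, SE 0.091, adjusted p = 1.16e-06). COL3A1, which accompanies collagen I in soft tissue, had 1.17, 1.16 and 1.14 CPM in TAF5-DE8, 1.99, 1.85 and 1.81 in TAF5-FL, 2.34, 2.69 and 2.35 in siTAF5 and 3.15, 3.47 and 3.29 in siNT. No groups overlapped, with TAF5-DE8 lowest and siNT highest. COL3A1 was 2.86-fold lower in TAF5-DE8 than in siNT (log2 -1.51, SE 0.12, adjusted p = 6.49e-10).

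The collagen V genes, which encode chains that regulate fibril diameter, went different ways. COL5A1 averaged 22.6 ± 1.67 CPM in TAF5-DE8, 25.4 ± 0.718 in TAF5-FL, 35.4 ± 1.87 in siTAF5 and 41.1 ± 1.16 in siNT, and it was called lower in siTAF5 than in siNT (log2 -0.22, SE 0.046, adjusted p = 0.000462). COL5A3 was the single tested matrix gene whose 6 libraries with a transgene all lay above the 6 without. It had 1.12, 0.891 and 1.02 CPM in TAF5-DE8, 0.932, 1.09 and 1.21 in TAF5-FL, 0.532, 0.545 and 0.649 in siTAF5 and 0.570, 0.562 and 0.554 in siNT. COL5A3 was 1.79-fold higher in TAF5-DE8 than in siNT (log2 0.84, SE 0.19, adjusted p = 0.000645) and rested on 25 to 68 counts per library. COL11A2, a collagen XI chain, had 1.48, 2.12 and 1.97 CPM in TAF5-DE8, 1.77, 1.78 and 2.0 in TAF5-FL, 1.11, 1.44 and 1.46 in siTAF5 and 1.77, 1.90 and 1.82 in siNT. It was lowest in siTAF5, and the other groups overlapped. The rise in TAF5-DE8 over siTAF5 (log2 0.46, SE 0.16, adjusted p = 0.0239) was lost without siTAF5 replicate 1, TAF5-DE8 replicate 2 or TAF5-DE8 replicate 3, with adjusted p up to 0.124.

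**Figure D4:**
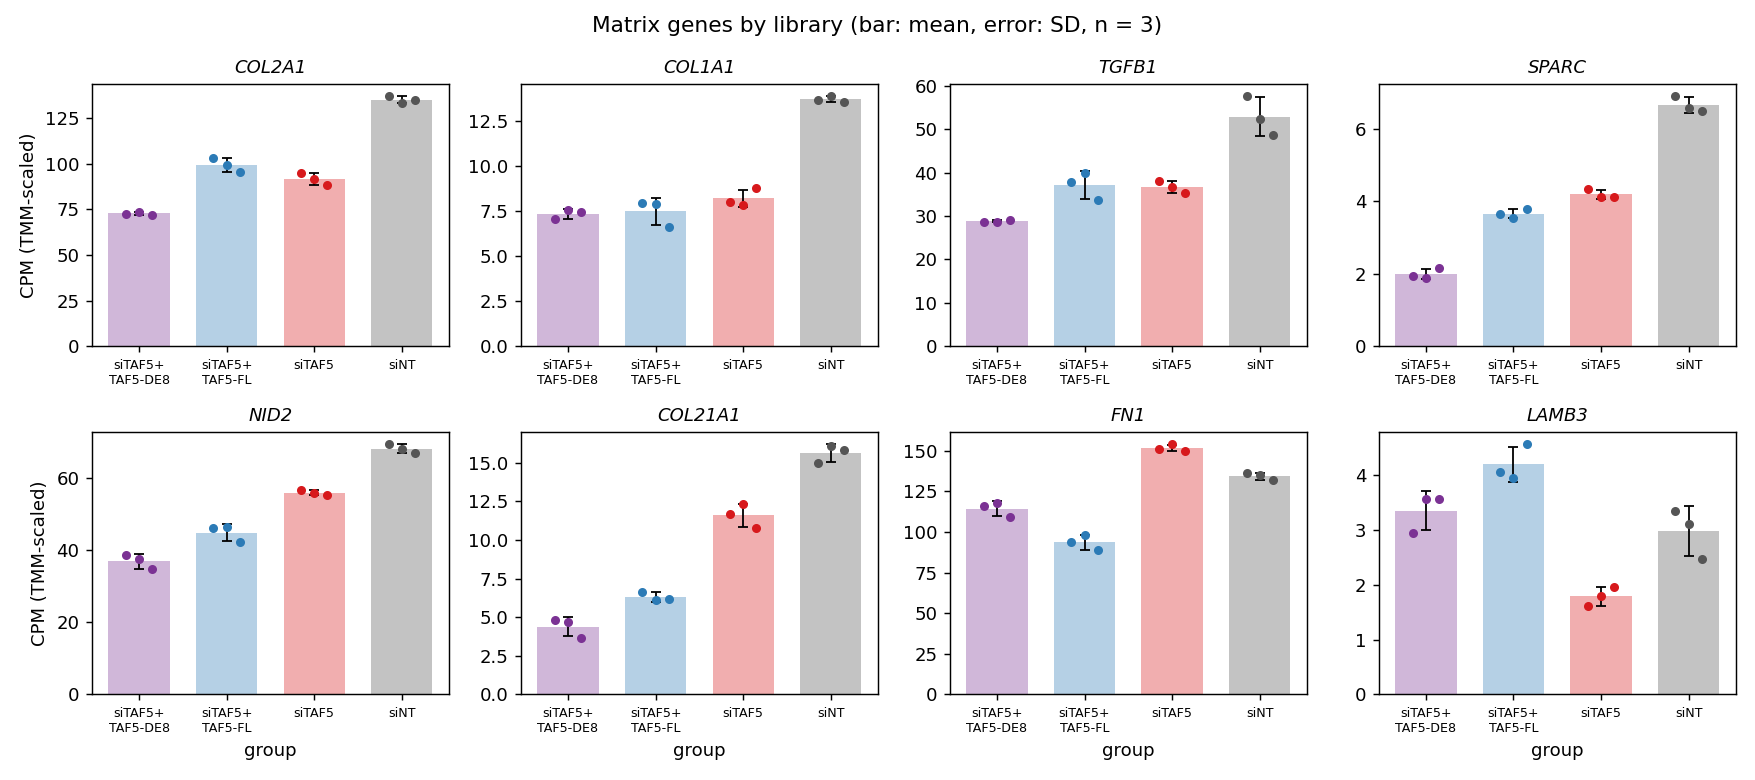
Level (CPM) of 8 matrix genes in each library, by group in the order TAF5-DE8, TAF5-FL, siTAF5 and siNT, with bars for the mean and error bars for the SD of 3 libraries. COL2A1, COL1A1, TGFB1, SPARC, NID2 and COL21A1 are highest in siNT, FN1 is highest in siTAF5 and LAMB3 is lowest in siTAF5.

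FACIT collagens, which decorate fibrils, were called lower in siTAF5 than in siNT for 7 of 8 genes tested, against 25.0% of all genes. Of these calls, COL19A1 was lost without siNT replicate 2, and COL20A1 with a minimum count of 30. COL14A1 had the highest level per kilobase of its class, and its levels were 91.3, 88.1 and 82.0 CPM in TAF5-DE8, 95.9, 94.5 and 89.4 in TAF5-FL, 135, 135 and 128 in siTAF5 and 153, 157 and 149.8 in siNT. It was low in both transgene groups, which overlapped. COL14A1 was 1.52-fold lower in TAF5-DE8 than in siTAF5 (log2 -0.60, SE 0.036, adjusted p = 5.05e-10) and 1.64-fold lower in TAF5-FL than in siNT (log2 -0.72, SE 0.036, adjusted p = 7.24e-12). Its call in TAF5-DE8 against TAF5-FL (log2 -0.10, SE 0.037, adjusted p = 0.0484) held under 7 of 19 alternative settings, with adjusted p up to 0.295.

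COL21A1 (chromosome 6, 56056590 to 56394094, minus strand) had 4.82, 4.67 and 3.66 CPM in TAF5-DE8, 6.64, 6.10 and 6.17 in TAF5-FL, 11.7, 12.3 and 10.8 in siTAF5 and 15, 16.1 and 15.8 in siNT. The groups were separate at every step. COL21A1 was 2.61-fold lower in TAF5-DE8 than in siTAF5 (log2 -1.38, SE 0.082, adjusted p = 4.23e-10) and 3.52-fold lower in TAF5-DE8 than in siNT (log2 -1.82, SE 0.079, adjusted p = 2.28e-13). Between the transgenes it was 1.43-fold lower in TAF5-DE8 (log2 -0.51, SE 0.09, adjusted p = 0.00014).

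The collagen IX genes of cartilage were low-level transcripts. COL9A3 had 0.804, 1.10 and 0.807 CPM in TAF5-DE8, 1.67, 1.54 and 1.3 in TAF5-FL, 1.17, 1.28 and 1.56 in siTAF5 and 3.11, 2.94 and 3.06 in siNT. The siNT libraries were far above the others, and TAF5-FL overlapped siTAF5. COL9A3 was 2.26-fold lower in siTAF5 than in siNT (log2 -1.17, SE 0.14, adjusted p = 1.1e-06) and 1.66-fold lower in TAF5-DE8 than in TAF5-FL (log2 -0.73, SE 0.17, adjusted p = 0.00181). It overlaps TCFL5 on the other strand, which had a mean of 1832.5 counts against 93.3 for COL9A3. COL9A2 averaged 6.17 ± 0.364 CPM in TAF5-DE8, 7.54 ± 0.779 in TAF5-FL, 9.76 ± 0.201 in siTAF5 and 11.6 ± 0.344 in siNT, and was called lower in every comparison.

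COL12A1, a FACIT of tendon and ligament, was called higher in TAF5-FL than in siTAF5. It had 7.34, 7.96 and 7.64 CPM in TAF5-DE8, 8.57, 9.54 and 9.19 in TAF5-FL, 7.03, 7.27 and 6.77 in siTAF5 and 9.07, 9.04 and 8.49 in siNT. TAF5-FL overlapped siNT, and siTAF5 was lowest. COL12A1 was 1.29-fold higher in TAF5-FL than in siTAF5 (log2 0.37, SE 0.065, adjusted p = 8.74e-05) and did not differ between TAF5-FL and siNT by the test (log2 0.03, SE 0.063, adjusted p = 0.693). COL20A1 was called lower in siTAF5 than in siNT (adjusted p = 0.000474) on very few reads, with 6, 6 and 8 counts in TAF5-DE8, 9, 15 and 11 in TAF5-FL, 0, 2 and 2 in siTAF5 and 10, 13 and 15 in siNT.

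Transmembrane collagens were lower with either transgene. COL13A1, found at neuromuscular junctions, had 5.84, 5.93 and 5.77 CPM in TAF5-DE8, 5.02, 4.13 and 4.32 in TAF5-FL, 11, 10.6 and 10.5 in siTAF5 and 9.38, 9.17 and 10.6 in siNT. The siTAF5 and siNT libraries overlapped at about the same level, and TAF5-FL was lowest. COL13A1 was 2.35-fold lower in TAF5-FL than in siTAF5 (log2 -1.24, SE 0.078, adjusted p = 1.09e-10) and 1.29-fold higher in TAF5-DE8 than in TAF5-FL (log2 0.37, SE 0.084, adjusted p = 0.00158). COL23A1 averaged 1.52 ± 0.153 CPM in TAF5-DE8, 1.60 ± 0.0885 in TAF5-FL, 3.52 ± 0.243 in siTAF5 and 4.92 ± 0.444 in siNT, and was 2.31-fold lower in TAF5-DE8 than in siTAF5 (log2 -1.21, SE 0.12, adjusted p = 1.36e-07). COL25A1, known from amyloid plaques, averaged 32.2 ± 1.20 CPM in TAF5-DE8, 32.5 ± 0.832 in TAF5-FL, 44.0 ± 1.52 in siTAF5 and 49.8 ± 1.02 in siNT. COL17A1, a hemidesmosome collagen, was not called in any of the 6 comparisons, at 0.284 ± 0.112 to 0.468 ± 0.204 CPM by group.

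COL6A1 had 131, 127 and 123 CPM in TAF5-DE8, 152, 144 and 135 in TAF5-FL, 195, 185 and 177 in siTAF5 and 220, 208 and 206 in siNT. The groups did not overlap, and the levels stepped up in that order. COL6A1 was 1.67-fold lower in TAF5-DE8 than in siNT (log2 -0.74, SE 0.04, adjusted p = 4.44e-12). COL18A1, the source of endostatin, averaged 91.1 ± 2.85 CPM in TAF5-DE8, 95.1 ± 5.54 in TAF5-FL, 129.9 ± 3.67 in siTAF5 and 139 ± 7.25 in siNT, and was 1.42-fold lower in TAF5-DE8 than in siTAF5 (log2 -0.51, SE 0.04, adjusted p = 1.32e-08). COL8A1, a short-chain collagen of vessels and cornea, had 0.377, 0.374 and 0.190 CPM in TAF5-DE8, 0.540, 0.356 and 0.510 in TAF5-FL, 0.447, 0.422 and 0.368 in siTAF5 and 0.846, 1.02 and 1.17 in siNT. Only siNT stood apart, and COL8A1 was 2.47-fold lower in siTAF5 (log2 -1.3, SE 0.24, adjusted p = 0.00014). COL8A1 rested on 8 to 72 counts per library. COL7A1, the anchoring fibril collagen, was not called in any comparison, at 1.51 ± 0.09 to 1.95 ± 0.22 CPM by group.

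Lysyl oxidases, which crosslink collagen and elastin, were called lower in TAF5-FL and in TAF5-DE8 than in siTAF5 for 3 of 4 genes. Over all genes 24.4% and 20.6% were called lower in these comparisons. LOX had 34.9, 36.1 and 30.5 CPM in TAF5-DE8, 41.7, 39.1 and 34.0 in TAF5-FL, 49.8, 51.2 and 49.3 in siTAF5 and 61.4, 64.1 and 61.1 in siNT. The transgene groups overlapped, and siTAF5 lay below siNT (log2 -0.31, SE 0.055, adjusted p = 8.11e-05). LOXL1, known for elastic fibres, went the other way in siTAF5, with 24.1, 23.6 and 23.7 CPM in TAF5-DE8, 24.0, 23.6 and 19.6 in TAF5-FL, 35.6, 34.2 and 34.5 in siTAF5 and 34.0, 28.5 and 28.2 in siNT. Its siTAF5 libraries were above siNT by a narrow margin to siNT replicate 1. The log2 change of LOXL1 in siTAF5 against siNT was 0.20 (SE 0.064, adjusted p = 0.0122), a call lost without siTAF5 replicate 1, siNT replicate 2 or siNT replicate 3. LOXL3 had 4.99, 5.38 and 4.82 CPM in TAF5-DE8, 6.18, 7.00 and 5.92 in TAF5-FL, 5.77, 5.67 and 5.54 in siTAF5 and 5.56, 4.64 and 5.69 in siNT. TAF5-FL was highest, and its call against siNT (log2 0.26, SE 0.086, adjusted p = 0.0141) was lost without siNT replicate 2 or TAF5-FL replicate 2. LOXL3 overlaps HTRA2 and DOK1 on the opposite strand.

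Among the glycoproteins, FN1 and SPARC moved in opposite directions in siTAF5 against siNT. FN1 encodes fibronectin, the adhesive glycoprotein bound by integrins (chromosome 2, 215360440 to 215436073, minus strand). It had 116, 118 and 109 CPM in TAF5-DE8, 93.7, 98.1 and 89.1 in TAF5-FL, 151, 154 and 150.1 in siTAF5 and 136, 135 and 132 in siNT. The groups did not overlap, with siTAF5 highest and TAF5-FL lowest. FN1 was 1.13-fold higher in siTAF5 than in siNT (log2 0.17, SE 0.032, adjusted p = 0.000177). It was 1.62-fold lower in TAF5-FL than in siTAF5 (log2 -0.69, SE 0.034, adjusted p = 3.03e-12) and 1.22-fold higher in TAF5-DE8 than in TAF5-FL (log2 0.29, SE 0.034, adjusted p = 1.28e-06).

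SPARC, a collagen-binding matricellular protein also called osteonectin (chromosome 5, 151661096 to 151686975, minus strand), had 1.94, 1.89 and 2.16 CPM in TAF5-DE8, 3.66, 3.53 and 3.78 in TAF5-FL, 4.34, 4.13 and 4.12 in siTAF5 and 6.90, 6.58 and 6.48 in siNT. The 4 groups were separate, with siNT highest and TAF5-DE8 lowest. SPARC was 1.58-fold lower in siTAF5 than in siNT (log2 -0.66, SE 0.077, adjusted p = 5.27e-07) and 1.84-fold lower in TAF5-DE8 than in TAF5-FL (log2 -0.88, SE 0.094, adjusted p = 3.93e-07). TAF5-FL did not differ from siTAF5 by the test (log2 -0.20, SE 0.084, adjusted p = 0.0606).

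The fibrillins, which build microfibrils, differed from each other. FBN1 was not called in any of the 6 comparisons, with 29.8, 32.3 and 29.8 CPM in TAF5-DE8, 27.5, 31.1 and 30.3 in TAF5-FL, 28.7, 29.5 and 29.9 in siTAF5 and 28.8, 30.8 and 28.5 in siNT. All 4 groups of FBN1 overlapped. FBN2 averaged 217 ± 10.8 CPM in TAF5-DE8, 234 ± 9.24 in TAF5-FL, 250.3 ± 6.47 in siTAF5 and 277 ± 10.8 in siNT, and was called lower in siTAF5 than in siNT (log2 -0.15, SE 0.036, adjusted p = 0.00199). THBS1, an activator of latent TGF-beta, averaged 2.06 ± 0.164 CPM in TAF5-DE8, 1.93 ± 0.117 in TAF5-FL, 2.80 ± 0.19 in siTAF5 and 2.53 ± 0.148 in siNT. It was called lower with either transgene and was not called in siTAF5 against siNT (log2 0.15, SE 0.11, adjusted p = 0.271). TGFBI, a protein named for its induction by TGF-beta, had 2 to 16 counts per library.

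Of the TGF-beta ligand genes, TGFB1 and TGFB2 were lower in siTAF5 than in siNT. TGFB3, which the naming rule leaves out, was not called there (log2 0.09, adjusted p = 0.536), at 2.80 ± 0.267 CPM in siTAF5 and 2.63 ± 0.259 in siNT. TGFB1 (chromosome 19, 41301587 to 41353922, minus strand) had 28.6, 28.7 and 29.1 CPM in TAF5-DE8, 37.9, 39.8 and 33.7 in TAF5-FL, 38.0, 36.7 and 35.2 in siTAF5 and 57.6, 52.3 and 48.6 in siNT. TAF5-FL overlapped siTAF5, and TAF5-DE8 was lowest. TGFB1 was 1.44-fold lower in siTAF5 than in siNT (log2 -0.53, SE 0.055, adjusted p = 1.22e-07) and 1.29-fold lower in TAF5-DE8 than in TAF5-FL (log2 -0.37, SE 0.059, adjusted p = 5.41e-05). It overlaps several genes, of which the most abundant had a mean of 33437.5 counts against 2098.8 for TGFB1. TGFB2 had 6.73, 6.82 and 6.43 CPM in TAF5-DE8, 6.38, 6.24 and 6.05 in TAF5-FL, 9.24, 9.55 and 9.81 in siTAF5 and 10.2, 11.2 and 11 in siNT. Both transgene groups of TGFB2 were low. The call of TGFB2 in siTAF5 against siNT (log2 -0.19, SE 0.057, adjusted p = 0.0109) was lost without siNT replicate 2. TGFB2 was 1.53-fold lower in TAF5-FL than in siTAF5 (log2 -0.61, SE 0.063, adjusted p = 9.62e-08) and was not called in TAF5-DE8 against TAF5-FL (log2 0.10, SE 0.066, adjusted p = 0.266).

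Matrix genes were compared by whether a transgene was present. In 37 of the 63 tested genes (58.7%) all 6 libraries with a transgene lay below all 6 without one, against 10.3% of all genes tested. They were 5 of 6 collagen IV genes, all 4 linkers, 6 of 11 laminins, 3 of 4 lysyl oxidases, 3 of 9 fibrillar and 4 of 8 FACIT collagens, with the rest spread over other classes. The reverse order, all 6 above, held for 1 of 63 genes (COL5A3) and for 10.9% of all genes. COL4A5 was the collagen IV exception, since its TAF5-DE8 libraries overlapped siNT.

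The comparisons of siTAF5 against siNT and of TAF5-DE8 against TAF5-FL share no library. Of the matrix genes, 35 were called in the first and 32 in the second, and 21 in both, which is 60.0% of the first list and 65.6% of the second. All 21 had the same direction, 17 lower and 4 higher, the 4 being COL4A5, FN1, LAMB2 and AGRN. Not all of these calls were steady. The AGRN call in siTAF5 against siNT held under 8 of 19 alternative settings. COL14A1 in TAF5-DE8 against TAF5-FL held under 7 of 19. Over all genes 5589 were called in both, 57.9% of the first and 77.9% of the second, with the same direction in 97.3% of them. Across the 63 genes Pearson's r of the 2 log2 changes was 0.527, and across all genes it was 0.515. Genes are not independent replicates, and these values are descriptions. COL1A1 was an example called in siTAF5 (log2 -0.74) and not between the transgenes (log2 -0.03, SE 0.072, adjusted p = 0.779), whereas COL3A1 had -0.42 in the first and -0.71 in the second.

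**Figure D5:**
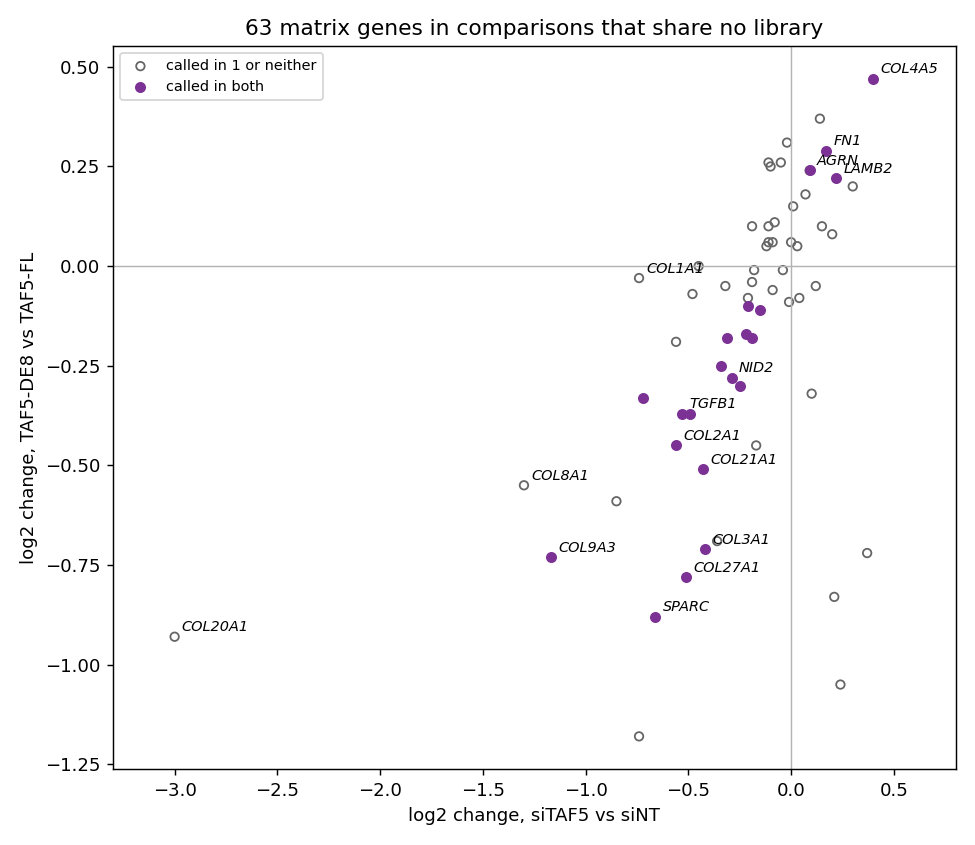
log2 change of the 63 tested matrix genes in siTAF5 against siNT (horizontal axis) and in TAF5-DE8 against TAF5-FL (vertical axis), filled where called in both. The 21 filled points lie in the lower left (17) and upper right (4), and COL1A1 sits at -0.74 and -0.03.

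Genes that act on the matrix were taken from other lists. Of 27 tested matrix receptors, 3 were called higher and 14 lower in siTAF5 against siNT, with a median log2 change of -0.158, where 49.7% of all genes were called, 24.7% higher and 25.0% lower. In TAF5-DE8 against TAF5-FL 8 were higher and 8 lower, where 37.0% of all genes were called. CD44, a hyaluronan receptor, averaged 12.6 ± 0.957 CPM in TAF5-DE8, 17.2 ± 0.263 in TAF5-FL, 13.6 ± 0.823 in siTAF5 and 20.8 ± 0.322 in siNT, and was 1.52-fold lower in siTAF5 than in siNT (log2 -0.61, adjusted p = 1.31e-08). ITGB4, the integrin chain that binds laminin at hemidesmosomes, was 2.77-fold lower in siTAF5 than in siNT (log2 -1.47, adjusted p = 2.06e-08), at 1.53 ± 0.0423 against 4.26 ± 0.254 CPM. CD44 was higher in TAF5-FL than in siTAF5 (log2 0.33, adjusted p = 4.84e-05).

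Of 21 tested matrix proteases and inhibitors, 5 were called higher and 3 lower in siTAF5 against siNT, a smaller share than the 49.7% of all genes called. In TAF5-DE8 against TAF5-FL 6 were higher and 2 lower, close to the 37.0% of all genes called. In TAF5-FL against siTAF5 they were 3 higher and 12 lower, where 48.8% of all genes were called. HTRA1, a secreted serine protease, averaged 15.2 ± 0.68 CPM in TAF5-DE8, 9.52 ± 1.37 in TAF5-FL, 19.4 ± 0.221 in siTAF5 and 12 ± 0.758 in siNT. It was 1.62-fold higher in siTAF5 than in siNT (log2 0.70, adjusted p = 6.67e-08) and 1.59-fold higher in TAF5-DE8 than in TAF5-FL (log2 0.67, adjusted p = 8.08e-07). TIMP2, an inhibitor of metalloproteases, moved the same way (log2 0.33, adjusted p = 7.26e-08 in siTAF5 against siNT), and the metalloprotease MMP15 the other way (log2 -0.52, adjusted p = 3.98e-09).

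Of 23 tested genes of collagen synthesis and processing, 3 were called higher and 10 lower in siTAF5 against siNT, with a median of -0.115, against 49.7% of all genes called. In TAF5-DE8 against TAF5-FL 4 were higher and 6 lower, against 37.0% of all genes called. CRTAP and P3H1 encode partners in the complex that hydroxylates collagen prolines, and they moved in opposite directions. CRTAP averaged 91.8 ± 2.85 CPM in TAF5-DE8, 173 ± 6.38 in TAF5-FL, 111 ± 2.74 in siTAF5 and 251 ± 8.53 in siNT, a 2.27-fold lower level in siTAF5 than in siNT (log2 -1.18, adjusted p = 1.17e-15). P3H1 averaged 64.9 ± 0.223 CPM in TAF5-DE8, 50.3 ± 1.04 in TAF5-FL, 69.4 ± 1.13 in siTAF5 and 51.4 ± 1.51 in siNT, a 1.35-fold higher level in siTAF5 than in siNT (log2 0.43, adjusted p = 3.28e-10). PCOLCE, an enhancer of procollagen processing, was lower in siTAF5 than in siNT (log2 -0.66, adjusted p = 6.3e-08), as COL1A1 and COL2A1 were.

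Of 20 tested TGF-beta pathway genes, 2 were called higher and 3 lower in siTAF5 against siNT, with a median of -0.014, against 49.7% of all genes called. TGFB1 and TGFB2 above were lower. In TAF5-DE8 against TAF5-FL 8 were higher and 2 lower, against 37.0% of all genes called. TGFBR1, the type I receptor, was 1.20-fold higher in siTAF5 than in siNT (log2 0.26, adjusted p = 2.79e-05). LTBP4, which binds latent TGF-beta, averaged 99.4 ± 3.55 CPM in TAF5-DE8, 84.9 ± 6.84 in TAF5-FL, 177 ± 10.7 in siTAF5 and 164 ± 8.22 in siNT. It was 2.09-fold lower in TAF5-FL than in siTAF5 (log2 -1.06, adjusted p = 2.26e-12), with the group means in the same order as for AGRN.

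Other matrix glycoproteins and proteoglycans had 36 of 47 genes tested. In siTAF5 against siNT 4 were called higher and 16 lower (median -0.136), in TAF5-FL against siTAF5 3 and 20 (median -0.307), in TAF5-DE8 against siTAF5 3 and 23 (median -0.407), and in TAF5-DE8 against TAF5-FL 5 and 8 (median -0.005). Over all genes 49.7%, 48.8%, 40.6% and 37.0% were called in these comparisons, in the same order. SMOC1, a calcium-binding basement membrane protein, was 1.24-fold higher in siTAF5 than in siNT (log2 0.31, adjusted p = 8.57e-08). MFAP2, a microfibril protein, was 1.36-fold lower (log2 -0.45, adjusted p = 2.01e-07), and FBLN5, an elastic fibre protein, 1.35-fold lower (log2 -0.43, adjusted p = 1.88e-06). TNC, which encodes tenascin-C, was 1.33-fold lower in TAF5-DE8 than in TAF5-FL (log2 -0.41, adjusted p = 3.33e-06).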

How the data were processed

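The 12 libraries were grouped by the labels' titles. The deposited table holds expected counts, estimated reads per gene that the authors did not normalize, as the values show (46.5% of entries are not whole). Per the submitters' processing notes, DESeq2, Partek 10.0.23.0531, STAR 2.7.0f and cutadapt 1.18 were among the tools, and the build was hg38. The sources used here do not give the counting program, its annotation release or its strand setting. The kit is stranded, per the labels' protocols. Of the 72 genes, 29 overlap another annotated gene and 17 a gene with over 10% as many counts, so these are uncertain if strand was not used. The 17 are COL4A1, COL4A2, COL4A3, COL9A3, COL10A1, COL18A1, COL19A1, LAMA2, LAMA5, LAMB1, LOX, LOXL1, LOXL2, LOXL3, NID2, TGFB1 and THBS1.

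The design was written for counts. The estimates were rounded, and library totals moved by at most 91.3. Genes were filtered by filterByExpr with a minimum count of 10, leaving 19424. All 12 libraries entered 1 edgeR 4.0.16 quasi-likelihood fit (R 4.3.3, limma 3.58.1) with trimmed mean of M values and no replicate block. Tests were two-sided, with Benjamini-Hochberg adjustment over all genes tested and a threshold of 0.05. The SE is the log2 change divided by the square root of F, in size. The biological coefficient of variation was 2.82%. No intervals for counting error are given: the reads carry no molecular identifiers, and replicate pairs differed by 2.6 to 5.14 chi-square per degree of freedom. No spike-in was used here, so every change is one relative to most other genes. Levels per kilobase used exon lengths of GENCODE release 29, and ends are the listed stop minus 1. Promoters are from RefSeq.

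Members and lists were chosen with earlier results of these data known. Values per library are given for called genes of non-overlapping groups with average log2 CPM no lower than 0 and the smallest adjusted p (6 each way in siTAF5 against siNT and TAF5-DE8 against TAF5-FL, 3 in the others), for the 5 highest per length, and for others chosen after their values were seen. Of each other list, genes with the 3 smallest adjusted p in either of those comparisons could be named. Alternatives were other scalings, DESeq2 1.42.0, other filters (none, or a minimum of 30), a fit of the 2 groups alone, a replicate block and leaving out each library. The values of 1 laminin gene are not reported here, and it is left out of the map of changes; it stays in the counts.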

Additional observations from a re-analysis of the deposited data

How the results depend on the processing

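The 41 comparisons of single genes chosen by the rule were recomputed under 19 alternatives each. Of these 779 values, 770 kept direction and side of the threshold, 9 lost the call and 0 reversed. The lost calls were LOXL1 in siTAF5 against siNT, COL2A1 in TAF5-FL against siTAF5, COL11A2 in TAF5-DE8 against siTAF5 and LOXL3 in TAF5-FL against siNT. The rule took small adjusted p and separate libraries from these same data, so these 41 do not stand for all calls. Outside the rule, AGRN in siTAF5 against siNT held under 8 of 19 alternatives. COL14A1 in TAF5-DE8 against TAF5-FL held under 7, and COL6A6 in TAF5-DE8 against siTAF5 under 9. Others held throughout, such as NID1 in siTAF5 against siNT (19 of 19). With scaling by library totals, 8 matrix genes rather than 5 were higher in siTAF5 than in siNT. Of all genes called there, 57.8% were higher, against 49.8% in the main fit. The cause was not tested. Leaving out 1 library gave 2 to 4 genes higher in TAF5-DE8 against siTAF5 (4 with all), 13 to 21 lower in TAF5-DE8 against TAF5-FL (20 with all), and 1 to 2 higher in TAF5-DE8 against siNT (1 with all), where fewer libraries entered the fit. Genes higher in TAF5-DE8 against siNT were also 2 with only the 2 groups in the fit, and 2 with the replicate block.

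The deviations of same-numbered libraries from their group means correlated between -0.0507 and 0.0512. These small values do not settle whether equal replicate numbers mark paired libraries. With the block, 9787 genes rather than 9650 were called in siTAF5 against siNT, and 7409 rather than 7178 in TAF5-DE8 against TAF5-FL. Depth limits the calls of COL20A1, TGFBI, COL6A6, LAMA2, COL8A1 and COL15A1, which rest on few counts. COL6A3 was not called in any of the 6 comparisons, and 9 genes could not be tested.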
